A study of Mus musculus with 16 samples.

Results

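Acyl-CoA thioesterase genes were followed in the livers of mice fed a high-fat diet. The members are the rows of the deposited tables whose symbol is Acot1, Acot2, Acot3, Acot4, Acot7, Acot8, Acot9, Acot11, Acot12 or Acot13, each of which stood on 1 row, so 10 of 55487 rows. All 10 were among the 13905 genes that passed the filter on low counts. The study compared 16 liver libraries in 3 groups that are labelled with the same conditional genotype, J1 J2 lf/lf, on C57/Bl6J: 5 GFP controls (LJ1J2control), 5 Cre livers (LJ1J27a) and 6 Flpo livers (LJ1J27b). J1 and J2 stand for the stress kinases JNK1 and JNK2, 7a and 7b for their alternative exon 7 isoforms, and Cre and Flpo are DNA recombinases, with the allele set in hepatocytes only. The controls carry the same conditional alleles, so the groups share them. The labels give no age, sex, length of diet, hour of harvest or way in which the recombinase was delivered, nor whether the libraries of a group came from separate animals. A p-value therefore speaks of the scatter among libraries, part of which may be technical. The numbers in the titles rise from GFP through Cre to Flpo without mixing, and whether groups were handled on separate days cannot be told apart from the treatment.

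Acyl-CoA thioesterases cut the bond between a fatty acid and coenzyme A, which frees both and undoes the step by which acyl-CoA synthetases activate fatty acids. They thereby set how much acyl-CoA, free fatty acid and free CoA a compartment holds. Acot1 to Acot4 belong to the type I family, an array of neighbouring genes with an alpha/beta hydrolase fold: Acot1 acts in the cytosol, Acot2 in mitochondria, and Acot3 and Acot4 in peroxisomes. The other members are type II enzymes with a hot dog fold. In mouse liver several type I genes are known targets of PPARalpha, the fatty acid receptor that is active in fasting and on fatty diets.

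The ends of some coding sequences can be set beside the compartment of the enzyme, although no search for a targeting signal was run. Peroxisomal enzymes commonly end in a short targeting signal, encoded by the last codons before the stop. The last 30 coding bases are shown for 3 peroxisomal members and, for contrast, for cytosolic Acot1 and mitochondrial Acot2, from GENCODE M21 (GRCm38), with the last 9 bases in capitals:
Acot3 (chr12:84058994-84059023, + strand): ggcaaaaagaagacaatcccaGCAAAACTG
Acot4 (chr12:84043764-84043793, + strand): agtacccacagcagagcctccTGTAGACTG
Acot8 (chr2:164792895-164792924, - strand): ttgaagcctcaggtgtcagagAGTAAGCTA
Acot1 (chr12:84017347-84017376, + strand): agtgagtgtttgcatgtgtctCCTAAAATA
Acot2 (chr12:83993048-83993077, + strand): ttcttccacaaacagttgggtAGCAAGAGT

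The chromosome 12 members lie side by side on the plus strand of GRCm38: Acot2 from 83987861 to 83993873, Acot1 from 84009490 to 84018371, Acot4 from 84038379 to 84048601 and Acot3 from 84052144 to 84060402. Their coding sequences are alike, with 95.6% identity between Acot1 and Acot2, 84% between Acot1 and Acot3 and 76% between Acot3 and Acot4. Of all windows of 150 bases in their annotated transcripts, the read length of this study, 6.92% of those of Acot1, 10.2% of Acot2, 12.8% of Acot3 and 7.25% of Acot4 occur word for word in a transcript of another gene. For Acot2 that gene is Acot1 alone. For Acot4 it is no thioesterase gene but 4732463B04Rik alone, which is read from the opposite strand and stood at 0.237 to 1.17 TPM. Acot3 shares windows with Acot1, Acot5 and Acot6, and also with 4732463B04Rik and Gm49366. Gm49366 stood at 0 TPM in GFP and at no more than 9.62 in Cre and 15.6 in Flpo. Reads in such windows can have been split between the genes, for Acot1, Acot2 and Acot3 also between thioesterase genes. Single values of these 4 members are thus less certain than those of Acot7, Acot9, Acot12 and Acot13, in which the share was 0%. That share counts exact matches only. The coding sequences of Acot9 and Acot10, a relative outside the members, had 97.2% identity, with a longest identical run of 109 bases. Acot10 stood at 0.0261 TPM at most. Acot8 shares 4.63% of its windows with Snx21, which is read from the opposite strand and stood at 2.94 to 6.40 TPM. Acot11 shares 10.7% with Fam151a, which was counted at 0 in every GFP and Flpo library and at no more than 1.34 in Cre.

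Promoters of RefSeq (GRCm38.p6) were found for 9 of the 10 members. Each was searched on both strands, over the 250 bases before the start, for 2 copies of AGGTCA in the same direction with any 1 base between them, the direct repeat to which PPARalpha and several other nuclear receptors bind. The stretch around the closest match is shown for the 4 neighbours and for Acot12, which held the closest match of the family, with the 13 matched bases in capitals:
Acot12 (chr13:91741387-91741447, + strand): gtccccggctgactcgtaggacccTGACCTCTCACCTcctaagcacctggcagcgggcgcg
Acot4 (chr12:84038342-84038378, + strand): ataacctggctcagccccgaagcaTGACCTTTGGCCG
Acot2 (chr12:83987779-83987839, + strand): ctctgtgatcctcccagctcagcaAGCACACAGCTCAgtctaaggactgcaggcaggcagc
Acot1 (chr12:84009263-84009323, + strand): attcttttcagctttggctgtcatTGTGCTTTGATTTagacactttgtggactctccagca
Acot3 (chr12:84052027-84052087, + strand): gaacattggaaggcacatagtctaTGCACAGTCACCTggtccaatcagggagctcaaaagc
The match had 1 mismatch in Acot12, which 0.484% of 32851 promoter windows reach, and 2 in Acot4, which 3.24% reach. It had 3 in Acot2 and 4 in Acot1 and in Acot3, and 74.5% of all windows reach 4. These are matches of letters only.

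Library totals ranged from 27929393 to 36043322 estimated counts. The hepatocyte markers Alb, Apoa1 and Ttr stood at 4550.5 TPM or more in every library, while Adipoq, Plin1 and Lep of fat cells stood at 0.510 TPM at most. Other genes used as fat cell markers went higher. Cidea reached 88.7, Cfd 51.1 and Ucp1 2.12 TPM in a Flpo library, and Adig reached 3.88 in a GFP library. Hepatocyte markers were not all even across groups. Of 8 tested, 1 was higher and 1 lower in Cre against GFP, 0 were called in Flpo against GFP and 1 was lower in Flpo against Cre. Over all genes tested, 3.97% were higher and 5.58% lower with Cre than in the controls, and 6.26% were lower with Flpo than with Cre. Single calls among 8 genes therefore do not set these markers apart from other genes. Mapk8 and Mapk9, which encode JNK1 and JNK2, were not called in any comparison (lowest adjusted p = 0.0784, Mapk9 in Flpo against Cre, edgeR's quasi-likelihood test), and a count per gene cannot show which exon was used, so it does not check the isoform labels.

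Levels between genes were compared in TPM, which allows for gene length. In GFP livers Acot13, a thioesterase of long chain acyl-CoA also known as Them2, stood at 125 ± 9.998 TPM (SD, n = 5) and Acot1 at 124 ± 53.9. They were followed by Acot12, the cytosolic acetyl-CoA hydrolase, at 60.2 ± 7.32, Acot3 at 47.4 ± 22.9, the peroxisomal Acot8 at 36.1 ± 4.88 and Acot4 at 33.3 ± 10.04. Acot2 stood at 20.8 ± 8.29 and Acot7, a cytosolic enzyme best known from brain, at 15.7 ± 1.40. Acot11, known as Them1 from brown fat, stood at 3.42 ± 1.22 and the mitochondrial Acot9 at 2.62 ± 0.248 TPM. Most neighbours in this order overlapped: only Acot1 lay wholly above Acot12, and Acot7 wholly above Acot11. In Cre the order changed at the top, where Acot1 (236 ± 125 TPM, n = 5) exceeded Acot13 (68.7 ± 7.18) in 5 of 5 libraries and their ranges did not overlap. In Flpo, Acot1 (128 ± 22.9 TPM, n = 6) exceeded Acot13 (118 ± 19.9) in 3 of 6 libraries, and Acot3 was the third at 86.5 ± 27.9. Of relatives outside the members, Acot5 and Acot10 had at most 0.387 and 0.0261 TPM, and Acot6, a further chromosome 12 gene, at most 1.45.

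**Figure D1:**
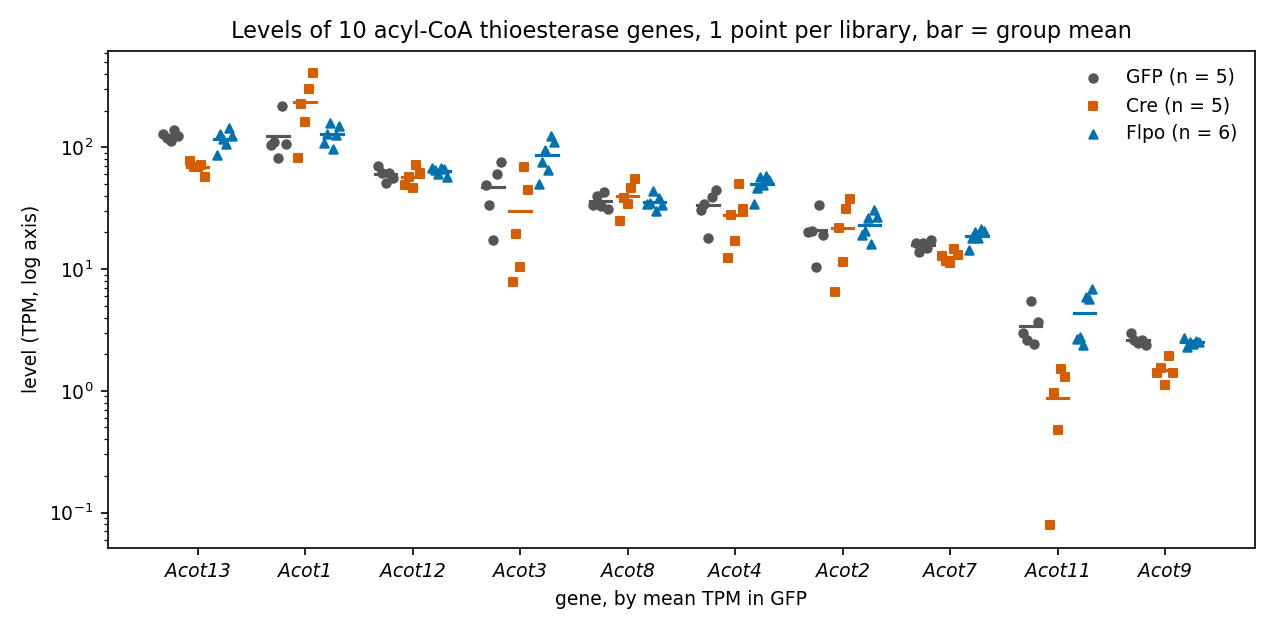
Level of each thioesterase gene in TPM on a log axis, 1 point per library, with a bar at the group mean (5 GFP, 5 Cre and 6 Flpo libraries). Acot13 and Acot1 stand highest in GFP and Acot11 and Acot9 lowest, and the Cre points of Acot13, Acot11 and Acot9 lie below all GFP points.

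The comparison of Cre with GFP asks how livers named for the 7a isoforms differ from control livers. Acot13 fell 1.60-fold, Acot9 1.57-fold and Acot11 3.61-fold, while Acot1 rose 2.15-fold. The other 6 members did not pass. With 4 of 10 members called, 1 higher and 3 lower, the background is that 9.55% of the 13905 genes tested were called, 3.97% higher (552) and 5.58% lower (776). At an unadjusted p under 0.05 the same 4 members passed, beside 24.3% of all genes. With library totals as the only scaling the split was 300 higher and 1656 lower, and the median of all genes then lay at -0.14 (log2), and 3 members were called, 0 higher and 3 lower, with Acot1 no longer called (0.95, adjusted p = 0.0685). The members' median log2 fold change was -0.13, against 0.00 over all genes tested. A gene was called at an adjusted p under 0.05 in edgeR's quasi-likelihood test, adjusted over all genes tested. From here on levels are in CPM, counts scaled to library size, which suit comparisons of 1 gene across libraries.

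Acot13 stood at 43.7, 42.9, 43.2, 47.5 and 46.8 CPM in GFP replicates 1 to 5 and at 31.4, 28.4, 31.4, 25.3 and 23.6 in the Cre replicates. Every Cre library lay below every GFP library. The log2 fold change was -0.68 (SE 0.12, adjusted p = 0.00245, edgeR's quasi-likelihood test). It was called in 26 of 27 alternative settings, with values from -0.87 to -0.56. The gene lies on chromosome 13 from 24817948 to 24831540 on the minus strand.

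Acot9, on chromosome X from 155262443 to 155297654, stood at 3.64, 3.34, 3.34, 3.19 and 3.18 CPM in GFP and at 2.07, 2.26, 1.79, 2.41 and 2.08 in Cre. The groups did not overlap, although the counts behind these values were low, 48.1 to 115. The log2 fold change was -0.65 (SE 0.15, adjusted p = 0.00939, edgeR's quasi-likelihood test), and the call held in 25 of 27 settings.

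Acot11, on chromosome 4 from 106744555 to 106804998 on the minus strand, stood at 8.46, 7.81, 17.4, 6.94 and 11.6 CPM in GFP and at 0.286, 3.34, 1.79, 4.51 and 4.47 in Cre. The groups did not overlap, and Cre replicate 1, with an estimated count of 7.57, was far below the rest. The log2 fold change was -1.85 (SE 0.49, adjusted p = 0.0273, edgeR's quasi-likelihood test). It was called in 21 of 27 settings. The call was lost when GFP replicate 3, GFP replicate 5 or else Cre replicate 3 was left out (adjusted p = 0.066, 0.0544 and 0.0656, edgeR), at -1.59, -1.81 and -1.72. It was also lost without a filter on low counts (0.078), in a fit of these groups alone (0.0606) and with the clock covariate given below. Groups that do not overlap were seen in 3 of 10 members here, all lower, and in 8.2% of all genes tested, 3.56% higher and 4.64% lower.

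Acot1 stood at 114, 128, 102, 240.4 and 130.2 CPM in GFP and at 109, 304, 236, 346 and 542 in Cre. The groups overlapped at both ends: GFP replicate 4 lay above Cre replicate 3, and Cre replicate 1 lay among the low GFP libraries. The log2 fold change was 1.11 (SE 0.33, 95% interval 0.41 to 1.80, adjusted p = 0.0437, edgeR's quasi-likelihood test). The rise was positive in all 27 settings, from 0.80 to 1.45, but was called in only 9 of them. It was lost in limma-voom (adjusted p = 0.0758), in a fit of these groups alone (0.105), on log2(TPM + 1) (0.126) and log2(TPM + 0.1) (0.13), without a filter on low counts (0.116), with library totals as given above, with the clock covariate given below, and without any one of GFP replicates 1, 2, 3 and 5, Cre replicates 2, 4 and 5 or Flpo replicates 2, 5 and 6, where it reached 0.121 without Cre replicate 5.

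The members that did not pass had wide or narrow intervals by gene. The log2 difference of Acot12 lay between -0.08 and 0.28 and that of Acot7 between -0.38 and 0.10 (95% intervals), so changes of 2-fold lie outside both. Acot3 stood at 76.3, 54.996, 30.1, 93.6 and 131 CPM in GFP and at 14.7, 36.95, 21.6, 110.0 and 84.4 in Cre. Its spread was so large that the interval ran from -1.62 to 0.56. The interval was -0.55 to 1.04 for Acot2, -0.71 to 0.48 for Acot4 and -0.01 to 0.67 for Acot8.

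**Figure D2:**
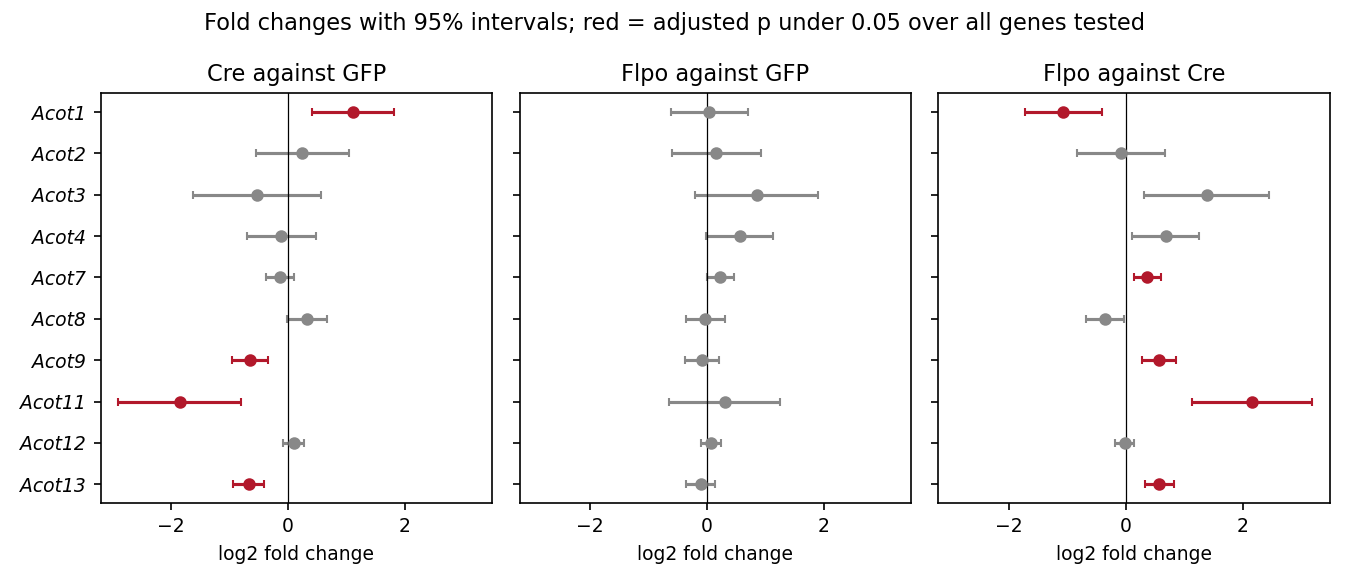
Log2 fold change of each member in the 3 comparisons, with 95% intervals as bars and genes with an adjusted p under 0.05 in red. Acot9, Acot11 and Acot13 are red and lower in Cre than in GFP and red and higher in Flpo than in Cre, Acot1 has the opposite sign in both, and no member is red in Flpo against GFP.

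**Figure D3:**
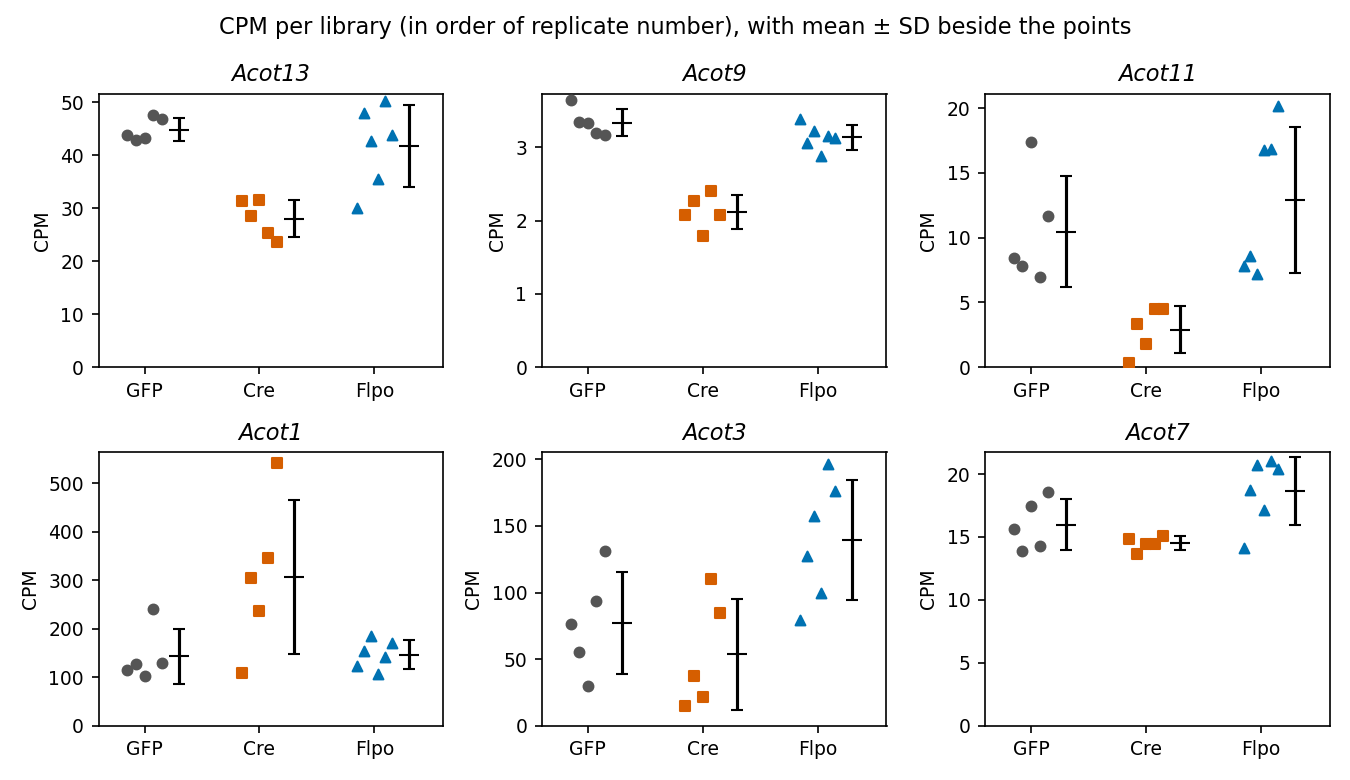
CPM of 6 members in each library from an axis that starts at 0, with mean ± SD beside the points (5 GFP, 5 Cre and 6 Flpo libraries). Acot13, Acot9 and Acot11 are lowest in Cre, while the Cre points of Acot1 spread from 109 to 542 CPM and those of Acot3 from 14.7 to 110.0.

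Cre livers differed widely among themselves in Acot11 and in the chromosome 12 members. The highest Cre library exceeded the lowest in CPM 15.8-fold in Acot11, 7.50-fold in Acot3, 5.84-fold in Acot2, 4.95-fold in Acot1 and 3.53-fold in Acot4. The ratio was 2.23-fold in Acot8 and between 1.11-fold (Acot7) and 1.34-fold (Acot9) in the other 4 members. Cre replicate 1 was the lowest Cre library and Cre replicate 3 the next lowest in each of the 4 neighbours. Cre replicates 4 and 5 were the highest pair in each. Acot8, Acot11 and Acot12 had the same lowest and next lowest Cre library, whereas Acot13 was lowest in Cre replicates 5 and 4.

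Within these 4 genes the make-up differed between groups more sharply than the sum. In GFP their levels summed to 226 ± 82.4 TPM (SD, n = 5). The sum was 316 ± 171 TPM in the 5 Cre libraries and 288 ± 58.4 in the 6 Flpo libraries, and the ranges overlapped. Acot1 made up 66.9% to 80.4% of that sum in the Cre libraries. It made up 43.2% to 64.3% in GFP livers and 37.2% to 51.3% in Flpo livers, so every Cre library lay above all others. Acot3 made up 5.22% to 15.1% in Cre livers, and in GFP and Flpo livers 13.5% to 30.9% and 23.5% to 36.4%. Acot1 exceeded Acot2, its nearest copy, 9.78-fold to 14.0-fold in Cre livers, against 5.18-fold to 7.97-fold in the controls and 4.07-fold to 6.27-fold with Flpo. These shares describe the libraries and were not tested, and reads shared between Acot1 and Acot2 bear on their ratio.

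**Figure D4:**
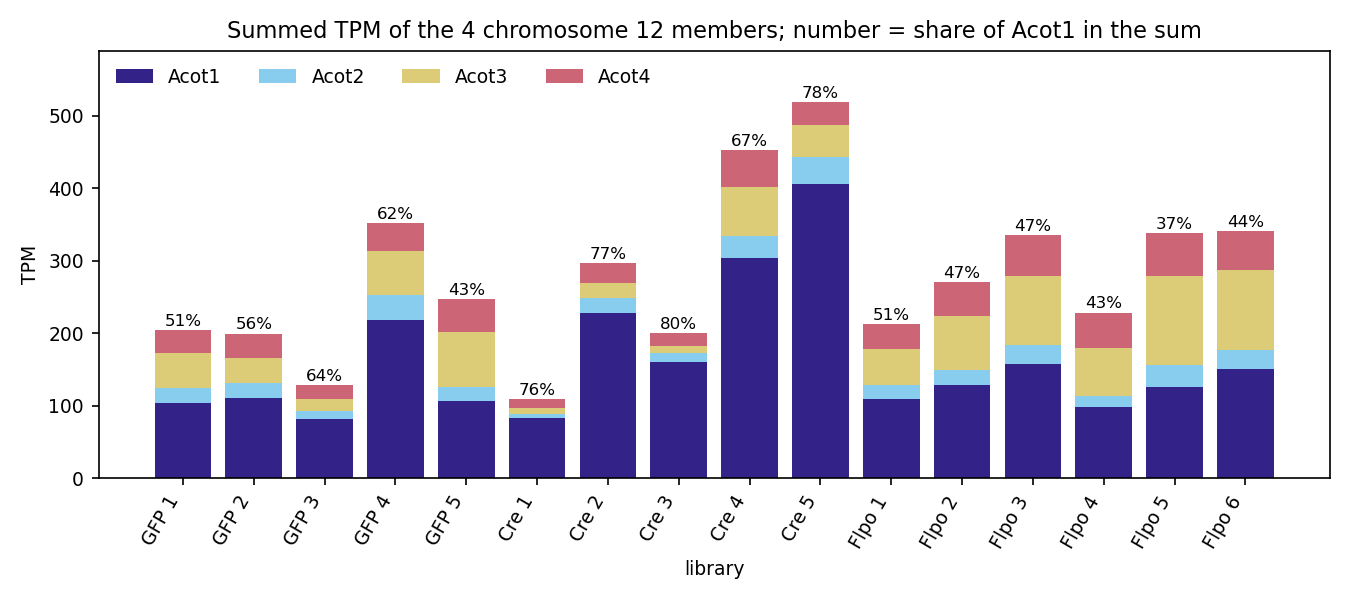
Summed TPM of Acot1, Acot2, Acot3 and Acot4 in each library as stacked bars from 0, with the share of Acot1 in the sum printed above each bar. The share of Acot1 is above 66% in all 5 Cre libraries and below 65% in all others, while the height of the bars overlaps between groups.

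Flpo livers, named for the 7b isoforms, were likewise set against the controls. No member was called by edgeR, 0 had an unadjusted p under 0.05 (9.73% of all genes tested did), and 0 were called by DESeq2 or limma-voom. Of all genes tested 0.0288% were called. Acot3 stood at 79.2, 128, 157, 99.6, 196 and 176 CPM in Flpo replicates 1 to 6, against 30.1 to 131 in GFP. Its log2 difference of 0.85 had a 95% interval of -0.20 to 1.91 (SE 0.49, adjusted p = 0.603, edgeR's quasi-likelihood test). Acot4 stood at 133 to 229 CPM in Flpo and at 77.0 to 188 in GFP, a log2 difference of 0.56 with an interval of -0.01 to 1.14. For Acot13, Acot9 and Acot12 the intervals were -0.35 to 0.14, -0.38 to 0.20 and -0.10 to 0.24. For Acot1 and Acot11 they were -0.62 to 0.70 and -0.64 to 1.25, wide enough to hold changes of more than 1.5-fold.

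The comparison of Flpo with Cre sets the isoform groups against each other, and also tests whether their differences from GFP differ. Acot13, Acot9, Acot11 and Acot7 were higher in Flpo, by 1.49-fold, 1.48-fold, 4.45-fold and 1.29-fold, and Acot1 was 2.10-fold lower. These were 5 of 10 members, beside 13.7% of all genes tested (7.45% higher and 6.26% lower), and the median log2 fold change was 0.46 in the members and 0.00 over all genes. With library totals as the only scaling 1810 genes were higher and 454 lower, in place of 1036 and 870. At an unadjusted p under 0.05 there were 8 members, beside 27% of all genes. The Cre libraries are the ones already used above, so this is no second sight of them.

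Acot11 stood at 7.84, 8.55, 7.18, 16.7, 16.8 and 20.1 CPM in Flpo, all above the highest Cre library at 4.51. The Flpo libraries fell into a lower and a higher set, replicates 1 to 3 and 4 to 6. The log2 fold change was 2.16 (SE 0.48, adjusted p = 0.00757, edgeR's quasi-likelihood test), called in 26 of 27 settings. Acot9 stood at 3.39, 3.06, 3.23, 2.88, 3.16 and 3.13 CPM in Flpo, again above every Cre library (log2 fold change 0.56, SE 0.14, adjusted p = 0.0122, edgeR). Groups that do not overlap were seen in 2 of 10 members, both higher, and in 7.84% of all genes, 4.52% higher and 3.32% lower.

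Acot13 stood at 29.96, 48.0, 42.6, 35.6, 50.3 and 43.8 CPM in Flpo, and replicate 1 lay within the Cre range. The log2 fold change was 0.57 (SE 0.12, adjusted p = 0.0039, edgeR). Acot7 stood at 14.1, 18.7, 20.8, 17.1, 21.0 and 20.4 CPM in Flpo and at 14.8, 13.6, 14.5, 14.5 and 15.1 in Cre, with Flpo replicate 1 again among the Cre values. Its log2 fold change was 0.36 (SE 0.11, adjusted p = 0.0362, edgeR). The Acot7 call was lost in 14 of 27 settings, among them limma-voom (0.0558) and the fits without GFP replicate 1, Cre replicates 1, 2, 3 or 4 or Flpo replicates 2, 3, 5 or 6, at adjusted p up to 0.0968 (without Flpo replicate 5).

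Acot1 stood at 123, 154, 184, 106, 142 and 170.4 CPM in Flpo, below 4 of the 5 Cre libraries. Its log2 fold change of -1.07 (SE 0.31, adjusted p = 0.0316, edgeR) was called in 14 of 27 settings and lost without Cre replicates 2, 4 or 5 or Flpo replicates 1, 4 or 5 (adjusted p up to 0.0999, without Cre replicate 5), in limma-voom (0.073), with library totals (0.0537), without a filter on low counts (0.0876) and on log2(TPM + 1) and log2(TPM + 0.1) (0.146 and 0.15). Acot3 was not called at 1.38 (SE 0.50, adjusted p = 0.0861) but passed without Cre replicate 4 at 1.82 (0.0267), in DESeq2 (0.03), in limma-voom (0.0392) and on log2(TPM + 1) and log2(TPM + 0.1) (0.0185 and 0.0208). Acot4 was not called at 0.68 (SE 0.27, adjusted p = 0.114) and passed without Cre replicate 4 at 0.92 (0.0266), on log2(TPM + 1) at 0.96 (0.0278) and on log2(TPM + 0.1) at 0.99 (0.0292). Acot8 stood at -0.36 (SE 0.16, adjusted p = 0.145) and passed without Cre replicate 1 at -0.49 (0.0252). For Acot12 the 95% interval was -0.19 to 0.15.

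Other thioesterases were read from a list of 15 genes, of which 11 were tested. Beside this list and those below, 3.97% of all genes tested were higher and 5.58% lower in Cre against GFP. In Flpo against Cre 7.45% were higher and 6.26% lower. In Cre against GFP 3 were lower and 0 higher: Them6, with a log2 fold change of -0.98 (edgeR, SE 0.17, adjusted p = 0.00182), Hibch, the hydrolase of a valine breakdown product bound to CoA (log2 fold change -0.38, SE 0.07), and the lysosomal palmitoyl-protein thioesterase Ppt1 (-0.38, SE 0.11). In Flpo against Cre the same 3 were higher and Lypla2, a cytosolic acyl-protein thioesterase, was lower at -0.46 (SE 0.10). Baat, which conjugates bile acids to amino acids, missed the threshold in Cre against GFP at -0.27 (SE 0.09, adjusted p = 0.0713). Over the 11 genes the median was -0.12, 0.01 and 0.21 (log2) in Cre against GFP, Flpo against GFP and Flpo against Cre.

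Acyl-CoA synthetases, which catalyse the opposite reaction, had 1 of 17 higher and 4 lower in Cre against GFP. Acsl4, which prefers arachidonic acid, rose, with a log2 fold change of 0.79 (edgeR, SE 0.18, adjusted p = 0.0104). The medium chain synthetases Acsm3 (-0.78, SE 0.11) and Acsm5 (-0.50, SE 0.12) and the acetyl-CoA synthetase Acss2 (-0.58, SE 0.15) fell. In Flpo against Cre 5 were higher and 2 lower, with Acsm3 at 0.97 (SE 0.11). Of 16 genes of CoA synthesis and turnover 1 was lower in Cre against GFP, near the share of all genes that were lower (5.58%). It was Slc5a6, a carrier of pantothenate, the vitamin from which CoA is made (-0.88, SE 0.18, adjusted p = 0.00535, edgeR). Nudt7, which breaks down CoA in peroxisomes, was not called there at 0.71 (SE 0.22, adjusted p = 0.0507) and was lower in Flpo than in Cre at -0.74 (SE 0.21, adjusted p = 0.0263). Of 12 genes of acyl-CoA binding and carnitine transfer 2 were higher in Cre, the carnitine carrier Slc22a5 (0.50, SE 0.14) and Cpt1a, which admits fatty acids to mitochondria (0.42, SE 0.13), and the acyl-CoA binding gene Acbd4 was lower (-0.56, SE 0.09).

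Commonly named PPARalpha targets outside the members had 6 of 30 higher and 0 lower in Cre against GFP, and 0 higher and 6 lower in Flpo against Cre. The median was 0.21 and -0.16, respectively. In Cre against GFP they included Ehhadh, the bifunctional enzyme of peroxisomal oxidation, at 1.81 (SE 0.28, adjusted p = 0.000677), the omega-hydroxylase Cyp4a31 at 1.73 (SE 0.35, adjusted p = 0.00558) and both subunits of the mitochondrial trifunctional protein, Hadhb at 0.41 (SE 0.11) and Hadha at 0.37 (SE 0.11). Among genes of peroxisomal oxidation, a list that shares Ehhadh with the one above, the racemase gene Amacr rose in Cre against GFP (0.41, SE 0.11) and the reductase gene Pecr fell (-0.59, SE 0.10). In Flpo against GFP 0 genes were called in any of these lists, beside 0.0288% of all genes tested.

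Some further measures moved with the groups. A score of clock genes (mean log2 CPM of Arntl, Npas2, Clock and Nfil3 less that of Dbp, Nr1d1, Nr1d2, Per3, Tef and Ciart) ranged from -3.52 to -1.43 in GFP, from -2.48 to -0.28 in Cre and from -4.64 to -2.83 in Flpo, so Cre and Flpo did not overlap. With that score as a covariate 0 members were called in any comparison. Calls were then also rare among all 13905 genes tested. They numbered 228 between Cre and GFP, 15 between Flpo and Cre and 0 between Flpo and GFP. The lack of called members therefore does not set the thioesterases apart from other genes. In Cre against GFP the log2 fold changes were then -0.56 for Acot13, -0.64 for Acot9, -1.43 for Acot11 and 1.45 for Acot1 (adjusted p = 0.11, 0.115, 0.294 and 0.109, edgeR). In Flpo against Cre they were 0.36 for Acot13, 0.54 for Acot9, 1.36 for Acot11, -1.68 for Acot1 and 0.07 for Acot7. The labels give no hour of harvest. Between Cre and Flpo, where the score did not overlap, it cannot be told apart from the group. Cre and GFP overlapped only through Cre replicate 4 (-2.48). Every other Cre library (-0.63 or above) lay above the highest GFP library (-1.43), so there too score and group can hardly be told apart. Of 10 stellate cell markers 4 were lower in Cre than in GFP, beside 5.58% of all genes tested. In Flpo against Cre 5 were higher, beside 7.45% of all genes tested. The summed level of the 10 was 111 to 175 TPM in GFP, 65.4 to 126 in Cre and 139 to 199 in Flpo. The 10 macrophage markers had 0 called and summed to 101 to 173 TPM in GFP, 88.8 to 125 in Cre and 85.3 to 224 in Flpo. Of 7 genes used as fat cell markers 2 passed the filter, and both were lower in Cre than in GFP, Cidea of lipid droplets at -4.22 (SE 0.65) and Cfd at -2.93 (SE 0.37). The sum of the 7 was 21.4 to 43.4 TPM in GFP, 2.23 to 5.39 in Cre and 23.7 to 120.3 in Flpo, with the defining Adipoq, Plin1 and Lep at or near 0. The part of these markers in the members' differences was not tested. In whole liver, fewer cells of a type and less RNA per cell cannot be told apart.

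After each group's mean was taken off the log2 CPM, the members varied together in some pairs across the 16 libraries. Of 45 pairs the closest were Acot3 with Acot4 (Pearson r = 0.94, Spearman rho = 0.93) and Acot1 with Acot2 (r = 0.94, rho = 0.90). Without the 2 libraries farthest from the median of the first gene, r was 0.90 and 0.86. Acot1 with Acot8, which lies on another chromosome, had r = 0.88, and 0.65 without Cre replicates 1 and 5, so it rested in part on those libraries. The neighbours Acot1 and Acot3 had r = 0.76, and 0.61 without the same libraries. The most negative pair was Acot12 with Acot13 at r = -0.38. Libraries, and for Acot1 and Acot2 shared reads, are common to both members of a pair, so these values are descriptions.

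By the same measure the 2 genes outside the members most like each one were taken from 11773 genes with a mean of at least 1 CPM. For Acot1 they were Decr1 and Hadha (r = 0.93 and 0.92), both enzymes of mitochondrial fatty acid oxidation. For Acot8 they were Oplah and Hadha (r = 0.94 and 0.92), and for Acot2 Cnih1 and the monoglyceride lipase gene Mgll (both r = 0.88). Acot3 and Acot4 shared the organic anion transporter gene Slco2b1 as the closest (r = 0.90 and 0.88), followed by Rdh16 (r = 0.86) and Riok2 (r = 0.87). Acot12 was closest to Virma and Me1 (r = 0.93 for both), and malic enzyme, the product of Me1, supplies NADPH for fat synthesis. Map2k3 was among the genes closest to Acot7 (r = 0.90). Acot13 was closest to Mrpl23-ps1 and Smim27 (both r = 0.90), Acot11 to Cnbd2 and Gm15408 (r = 0.88 and 0.87) and Acot9 to Rab11b and Rnf14 (r = 0.85 and 0.79). The closest of so many genes is bound to have a high r over 16 libraries, so these are given with no test.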

How the data were processed

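Liver RNA of 16 libraries was sequenced after polyA selection as paired reads, per the labels. The submitters' processing notes name cutadapt, STAR and the build mm10. Which program counted the reads, on which annotation and whether by strand, is not given in the sources used here. The authors deposited estimated counts per gene (31.7% of values not whole) and TPM per gene. Libraries were matched to groups by their titles.

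Estimated counts, rounded, went into edgeR 4.0.16 under R 4.3.3: filterByExpr (minimum count 10, 13905 genes kept), TMM factors, 1 robust quasi-likelihood fit of all 16 libraries, Benjamini-Hochberg adjustment over all genes, two-sided. SE was derived from the F statistic. CPM uses TMM factors, and log2 CPM a prior count of 2. Alternatives used limma 3.58.1 and DESeq2 1.42.0, other scalings, filters, log2(TPM + 1) and log2(TPM + 0.1), a clock covariate, a replicate block and each library left out. The fit was also run on counts drawn from its own model, with set changes in the Cre group. Such counts obey the model, so this run does not check the model against the real libraries. Members, lists and alternatives were chosen with earlier results of these data known. Named genes are the members, up to 4 genes of a list with the smallest p in a comparison, marker genes, and the 2 genes most like each member. Some genes that this rule names are not reported here. Of 9 hepatocyte symbols 8 were found in the table. Endothelial markers had 1 of 8 higher in Cre against GFP and bile duct markers 1 of 6, and of 17 clock genes 4 were lower. Of all genes tested 3.97% were higher and 5.58% lower there. In Flpo against Cre 1 endothelial marker was lower, and 1 bile duct marker was higher and 1 lower. Of the clock genes 9 were higher and 4 lower in Flpo against Cre, beside 7.45% and 6.26% of all genes tested.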

Additional observations from a re-analysis of the deposited data

Results flagged for a closer look

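Acot1 in GFP replicate 4 stood at 240.4 CPM, while the other 4 GFP libraries lay between 102 and 130.2, a gap large for the range of its group. Of 30 groups of libraries examined in this way 1 passed the critical value, and chance alone flags about 1 in 20. Without this library the log2 fold change of Acot1 in Cre against GFP was 1.39 (adjusted p = 0.0166, edgeR's quasi-likelihood test).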

How the results depend on the processing

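Across 27 alternative settings, 16 of which leave out 1 library, the direction of each called member was kept in every setting for Acot1, Acot9, Acot11 and Acot13 in Cre against GFP and for these and Acot7 in Flpo against Cre, but the call was not. The replicate numbers did not pair the libraries: of 15 same-numbered pairs the correlation of deviations ran from -0.156 to 0.117, with 1 over 0.1. The replicate block (without Flpo replicate 6, which has no partner) gave 3 called members in Cre against GFP, with Acot1 lost (adjusted p = 0.0795), and 3 in Flpo against Cre: Acot11, Acot13 and Acot3 (0.0484), with Acot1 (0.0823), Acot7 (0.0925) and Acot9 (0.0599) lost. It called 1019, 0 and 1352 genes in Cre against GFP, Flpo against GFP and Flpo against Cre. Members called in Cre against GFP numbered 1 without a filter on low counts, 2 in a fit of those groups alone and 0 with the clock covariate, and 2 to 4 with a library left out (2 without GFP replicate 3 or 5). In Flpo against Cre they numbered 6 in DESeq2 (5 higher and 1 lower), 6 on log2(TPM + 1) and on log2(TPM + 0.1) (6 higher and 0 lower in each), 2 without the filter, 0 with the clock covariate and 3 to 5 with a library left out (3 without Cre replicate 2 or Flpo replicate 5). Genes called in Cre against GFP (1328) numbered 2104 on log2(TPM + 1), 2172 on log2(TPM + 0.1), 834 in a fit of those groups alone, 228 with the clock covariate and 960 to 1462 with a library left out. In Flpo against GFP (4) they numbered 70 in DESeq2, 2 in limma-voom, 1 in a fit of those groups alone, 0 with the clock covariate and 0 to 15 with a library left out. In Flpo against Cre (1906) they numbered 15 with the clock covariate and 1454 to 2189 with a library left out. On log2(TPM + 1) the splits were 216 higher and 1888 lower in Cre against GFP and 2417 and 326 in Flpo against Cre. Signs that turned were all of values not called. With the clock covariate they were Acot3 0.23, Acot4 0.37 and Acot7 0.025 in Cre against GFP, Acot3 -0.13 and Acot4 -0.27 in Flpo against Cre, and Acot1 -0.23, Acot2 -0.18 and Acot11 -0.065 in Flpo against GFP. With library totals they were Acot12 -0.046 in Cre against GFP and Acot12 0.11 and Acot2 0.045 in Flpo against Cre. On log2(TPM + 1) Acot12 was -0.089 and Acot2 -0.085 in Cre against GFP and they were 0.19 and 0.29 in Flpo against Cre, and on log2(TPM + 0.1) the values were -0.0904 and -0.10, then 0.19 and 0.32. In Flpo against Cre Acot2 was 0.11 in limma-voom and 0.0395 with the replicate block. With a library left out values crossed 0 as follows: in Cre against GFP Acot4 from -0.358 to 0.072 and Acot2 from -0.074 to 0.480, in Flpo against Cre Acot12 from -0.076 to 0.012 and Acot2 from -0.324 to 0.232, in Flpo against GFP Acot1 from -0.063 to 0.309 and Acot8 from -0.104 to 0.034. The causes were not tested. Low counts limit Acot9, and Acot11 in Cre.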
